A study of Mus musculus with 6 samples.

Results

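The neurotrophin genes examined here are Bdnf and Ntf3, which encode the secreted ligands BDNF and NT-3, and the receptor genes Ntrk2, Ntrk3, Ngfr and Sort1. Their members on the array were all probe sets (sets of short probes against 1 transcript) whose single gene symbol in the platform annotation is 1 of these 6. The rule gave 24 of the 45101 probe sets: 2 for Bdnf, 8 for Ntrk2, 8 for Ntrk3, 3 for Ngfr and 3 for Sort1. No probe set carried Ntf3 as its single symbol, so NT-3 was not analysed here. Of the 24, 16 were bright enough to be tested.

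Total RNA came from brain of mice 1 month old, and the series' design describes the piece as midbrain with diencephalon and basal ganglia. There were 3 arrays of Dap12-ko mice, named 67, 68 and Ko1, and 3 of Dap12-het mice, named 75, 76 and 81. Dap12 is the signalling adaptor encoded by Tyrobp, carried in brain by microglia. The knockouts lack it and the heterozygous controls keep 1 working copy, so every animal carried the disrupted allele and no wild-type group was used here. The ko and het names come from sample titles and descriptions, whereas the source label calls all 6 samples Dap12-deficient. The labels give neither strain, sex nor how the allele was made, and nothing says that samples were separate animals, so p-values measure only the spread between these 6 samples.

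Neurotrophins are made as precursors that convertases cut to the mature ligand. Mature BDNF binds TrkB (Ntrk2) and NT-3 binds TrkC (Ntrk3), receptor tyrosine kinases that signal to the MAP kinase, PI3-kinase and phospholipase C pathways. Both genes also give truncated receptors without the kinase domain, and truncated TrkB is the form astrocytes mainly carry. The uncut precursors bind p75 (Ngfr) together with sortilin (Sort1), a pair known for opposing Trk signals. In forebrain Bdnf is made by excitatory neurons of cortex, hippocampus, thalamus and hypothalamus, whereas striatal neurons make little and receive the protein through axons.

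Bdnf is transcribed from several start sites whose transcripts share the coding exon, and both of its probe sets are of the kind that Affymetrix marks as matching several transcripts of 1 gene. They therefore could not tell the start sites apart. Of the 7 Bdnf promoter windows in the RefSeq table (250 bases before to 50 after a start, build GRCm38.p6), 1 holds a CRE half-site (TGACG, or CGTCA on the other strand), the core to which CREB binds. It is shown because CREB and other regulators of Bdnf are among the pathway genes below. The window is chr2:109692186-109692485 on the plus strand, with the half-site in capitals, starting 35 bases before the start site.

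Bdnf window: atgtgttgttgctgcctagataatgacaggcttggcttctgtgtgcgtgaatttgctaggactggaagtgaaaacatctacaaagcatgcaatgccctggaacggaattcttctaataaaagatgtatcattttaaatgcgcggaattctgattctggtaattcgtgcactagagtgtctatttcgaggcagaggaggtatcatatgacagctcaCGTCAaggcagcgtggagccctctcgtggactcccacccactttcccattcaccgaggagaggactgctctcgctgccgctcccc

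A half-site was present in 20.8% of 32851 windows in that table, and none of the 7 Bdnf windows holds the palindromic CRE (TGACGTCA, in 1.79% of all windows). Neither the Ntrk2 window, the Ngfr window nor the 2 Ntf3 windows hold a half-site. Such a match describes the letters only.

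Signals are linear scanner units. Changes are knockout minus heterozygous on log2(signal + 16), a scale that understates changes of dim probe sets, with standard errors and p-values from limma, adjusted by Benjamini-Hochberg over the 22518 probe sets tested. Tyrobp was at 2.28, 23.7 and 12.9 in knockouts 67, 68 and Ko1, against 70.7, 68.2 and 77.6 in heterozygotes 75, 76 and 81, a change of -1.68 ± 0.33 (adjusted p = 0.0439, limma), so each array's Tyrobp level matched its label. Whole arrays also differed with the groups. Median signals were 24.7 to 40.4 on knockout and 20.3 to 22.0 on heterozygous arrays, and all 18 probe sets of bacterial and phage RNA spiked into the samples were higher on each knockout array than on any heterozygous array. Knockout 67 and 68 correlated with the heterozygous arrays at 0.891 to 0.921 over all probe sets, and Ko1 at 0.942 to 0.954. The part of these differences in the results below was not tested.

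None of the 16 tested probe sets passed an adjusted p of 0.05 (limma; 6 had an unadjusted p under 0.05), against 1.98% of all tested probe sets passing and 20.9% with an unadjusted p under 0.05. The groups did not overlap for 5 of the 16, against 27.4% of all tested probe sets, a share near the background. Changes were above 0 for 8 and below 0 for 8. Without any 1 of knockout 67, 68, heterozygous 75 or 81, no probe set on the array passed (limma; 2846 to 3926 with an unadjusted p under 0.05), and 29 did without 76. Without knockout Ko1, 7 of 16 passed, 4 of Ntrk2 and all 3 of Sort1, when 23.2% of all probe sets did. In a fit of knockout 67 and 68 against heterozygous 75 and 76, 4 passed against 19.9%. With only Ko1 against the 3 heterozygous arrays 0 passed (limma) against 2.73%, and the lone array was assumed to vary like the others.

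**Figure D1:**
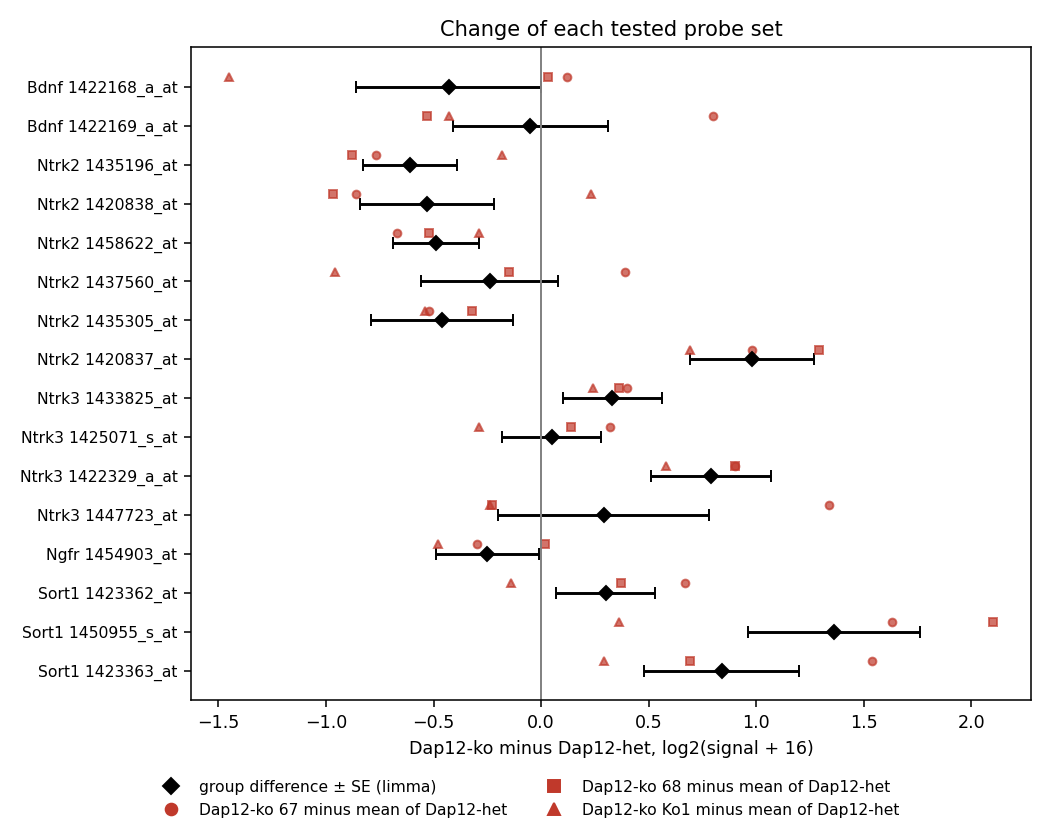
Knockout minus heterozygous difference of each of the 16 tested probe sets on log2(signal + 16): black diamonds are the group difference with its standard error from limma, and red symbols are each knockout array minus the mean of the 3 heterozygous arrays. Ntrk2 probe sets lie left of 0 except 1420837_at (0.98), those of Sort1 lie right of 0, and Ko1 often sits apart from 67 and 68.

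Bdnf levels overlapped between the groups and were low on 1 knockout array. Probe set 1422168_a_at read 115, 107 and 27.9 in knockouts 67, 68 and Ko1, against 116, 137 and 70.1 in heterozygotes 75, 76 and 81. Knockout 67 and 68 lay within the heterozygous range and Ko1 below it. The change was -0.43 ± 0.43 (adjusted p = 0.603, limma; exact permutation p = 0.5), and 0.08 without Ko1. The second probe set, 1422169_a_at, read 114, 35.9 and 39.5 in knockouts against 65.3, 58.4 and 53.3 in heterozygotes. Here 67 was the high array and the 2 others lay below all 3 controls, with a change of -0.05 ± 0.36 (adjusted p = 0.949, limma). The probe sets disagreed on knockout 68, which was near the controls in the first and lowest in the second.

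The arrays low in the first Bdnf probe set, Ko1 and heterozygous 81, were also those with few thalamic and many striatal marker signals. The summed signal of 9 thalamic markers, each gene by its brightest probe set, was 1501 on Ko1 and 3281 on 81, and 4864 to 6617 on the 4 other arrays. That of 9 striatal markers, of 12 listed, was 8285 on Ko1 and 7607 on 81 and 957.8 to 2585 on the others. Penk, the enkephalin precursor of striatal neurons, read 2404 on Ko1 and 2309 on 81, and 112 to 873 elsewhere. The second Bdnf probe set, 1422169_a_at, was instead lowest on knockout 68 (35.9), with sums of 5696 (thalamic) and 1517 (striatal). In that probe set heterozygous 81 read 53.3, near the 65.3 and 58.4 of 75 and 76. Over the groups, the thalamic sum ran from 1501 to 6083 on knockout and 3281 to 6617 on heterozygous arrays, and the striatal sum from 957.8 to 8285 and 2100 to 7607. No marker was at 0, the lowest deposited signal of any probe set being 0.0237, and 0 of 9 genes passed in either list (limma; 1 and 0 with an unadjusted p under 0.05). Sums of other regional lists also differed on Ko1 and 81. That of cortex and hippocampus markers was highest there (3588 and 4309, against 1860 to 3074 elsewhere). The midbrain dopamine sum was lowest there (834.8 and 698.8, against 1460 to 2043). The hypothalamic sum was 4992 and 3966, within the 1724 to 6740 of the other arrays. The part of these lists in the Bdnf values was not tested. In bulk tissue, fewer cells of a type and less RNA per cell cannot be told apart.

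**Figure D2:**
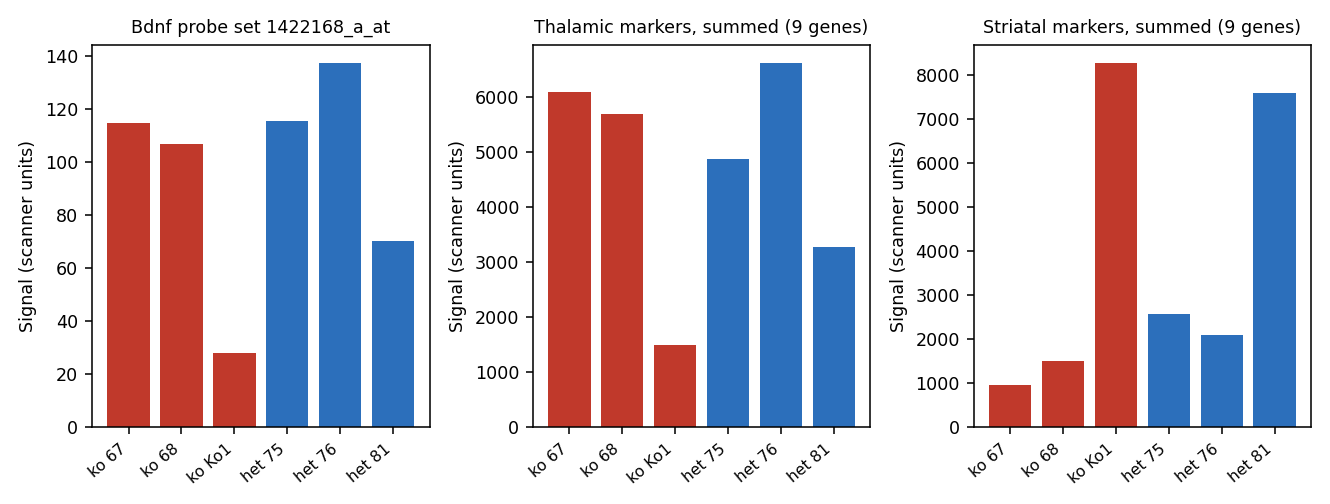
Signal of Bdnf probe set 1422168_a_at (left) and summed signals of 9 thalamic (middle) and 9 striatal markers (right) on each array, in scanner units; red bars are knockout and blue bars heterozygous arrays. Ko1 and heterozygous 81 have the lowest Bdnf and thalamic bars and the highest striatal bars. The second Bdnf probe set, 1422169_a_at, is not shown and was lowest on knockout 68 (35.9).

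Ntrk2, the BDNF receptor, had lower knockout means in its 5 bright probe sets and a higher one in a dim probe set, and none passed the test. The brightest, 1435196_at, read 533, 495 and 810 in knockouts 67, 68 and Ko1, against 936, 998 and 843 in heterozygotes 75, 76 and 81. Every knockout array was below every heterozygous array, Ko1 only slightly. Means were 613 ± 172 and 925 ± 78.0 (SD, n = 3), a change of -0.61 ± 0.22 (adjusted p = 0.16, limma). It was -0.83 without Ko1 (adjusted p = 0.00561) and -0.18 with Ko1 as the only knockout array (adjusted p = 0.525). Probe set 1458622_at read 526, 585 and 690 in knockouts against 702, 847 and 1011 in heterozygotes. It too did not overlap, with a change of -0.49 ± 0.20 (adjusted p = 0.21, limma).

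The other bright Ntrk2 probe sets overlapped between groups. Probe set 1420838_at was low on knockout 67 and 68 (458 and 422) but read 991 on Ko1, above the heterozygous 917, 889 and 731. Its change was -0.53 ± 0.31 (adjusted p = 0.366, limma), -0.91 without Ko1 and 0.23 with Ko1 alone. Probe set 1437560_at had the opposite order among knockout arrays, 807, 551 and 308, around heterozygous values of 526, 592 and 740, and a change of -0.24 ± 0.32 (0.12 without Ko1). Probe set 1435305_at read 358, 413 and 353 in knockouts against 328, 467 and 910 in heterozygotes. Heterozygous 81 stood far above the other arrays, and the change was -0.46 ± 0.33 with it and -0.06 without it.

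The dim Ntrk2 probe set 1420837_at went the other way. It read 53.7, 70.4 and 40.9 in knockouts against 17.4, 29.1 and 13.5 in heterozygotes, with no overlap. Means were 55.0 ± 14.8 and 20.0 ± 8.12 (SD, n = 3), a change of 0.98 ± 0.29 (adjusted p = 0.113, limma). Its heterozygous mean was below the filter level of 24.2, so it was tested only through the knockout arrays where it was high. The 2 remaining probe sets, 1446712_at and 1444121_at, stayed between 1.33 and 27.6 on the 6 arrays and were not tested.

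**Figure D3:**
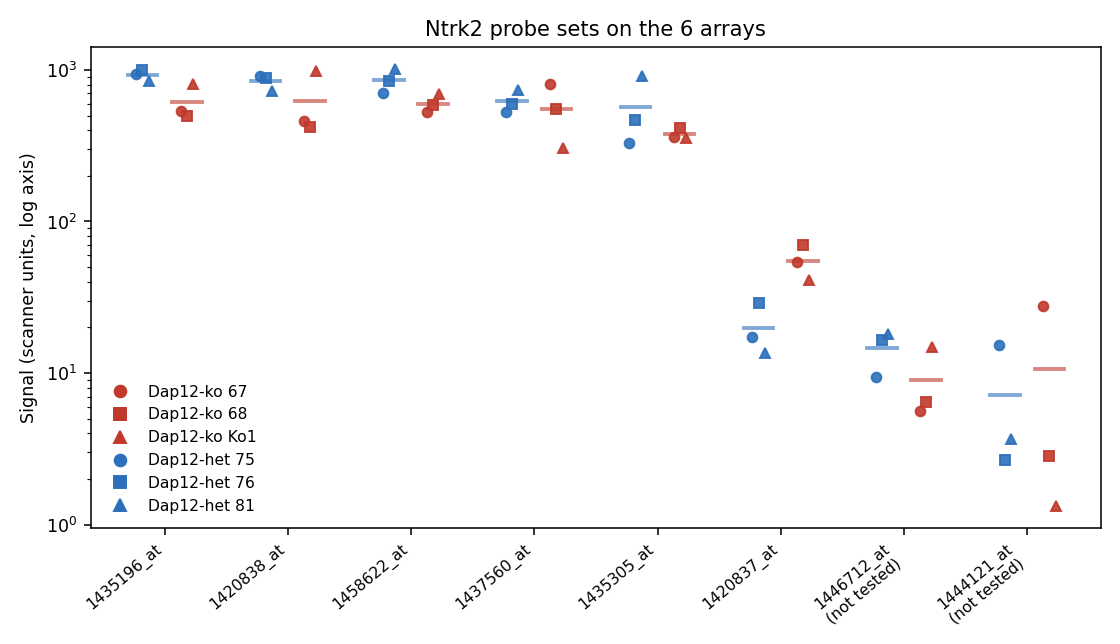
Signal of the 8 Ntrk2 probe sets on the 6 arrays (log axis, scanner units), with knockout arrays in red, heterozygous arrays in blue and lines at the group means. Groups separate in 1435196_at and 1458622_at (knockout lower) and in 1420837_at (knockout higher, 40.9 to 70.4 against 13.5 to 29.1).

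Probe sets of 1 gene were compared by their log2 difference within each array, brighter minus dimmer. Centring arrays on their medians leaves such a difference as it is, whereas quantile normalization moved some of them. Among 25 pairs from Ntrk2, Ntrk3, Sort1 and Bdnf the groups did not overlap for 7, against 34.1% of 13593 such pairs over all genes. In all 7 of these 25 pairs the brighter probe set was lower relative to the dimmer one on knockout arrays. Over all genes 4633 pairs did not overlap, and 3328 of them went this way, which is 24.5% of the 13593. In 6 of the 7 the dimmer probe set (Ntrk2 1420837_at or Ntrk3 1422329_a_at) had a heterozygous level below the filter, so its entry into the test favoured this direction, and these pairs are given as a description. The 5 of them in Ntrk2 all involved 1420837_at. Against 1420838_at, which the annotation assigns to the same source sequence, the difference was 2.77, 2.34 and 4.14 in knockouts against 4.81, 4.33 and 4.66 in heterozygotes, a change of -1.51. The exact permutation p was 0.1, the smallest possible with 3 against 3, and 0.357 adjusted over the 25 pairs. The change was -1.09 with quantile normalization, -0.99 with 64 added in place of 16, -2.05 with a floor of 1, -1.14 to -2.04 leaving out 1 array and -0.45 with Ko1 alone. The 10 pairs among the bright Ntrk2 probe sets all overlapped, with changes from -0.37 to 0.22. Which probe sets report full-length and which report truncated TrkB is not given in the sources used here, so these values were not read as isoform levels.

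Astrocytes and neurons both carry Ntrk2. The summed signal of 16 astrocyte markers was 22280 to 23890 on knockout and 16500 to 20400 on heterozygous arrays, but without Glul (glutamine synthetase) it was 17950 to 19030 against 14590 to 18170, and the groups overlapped. Glul rose (1.13 ± 0.23, adjusted p = 0.0485, limma) and the 15 other genes did not pass. Only 6 of the 16 had a change above 0, with a median of -0.11. The summed signal of 15 neuronal markers, of 16 listed, was 25160 to 35490 on knockout and 23050 to 24560 on heterozygous arrays. On their brightest probe sets 0 of 15 genes passed (limma, 3 with an unadjusted p under 0.05), with a median change of 0.12. Snap25 alone read 6488, 8552 and 5703 in knockouts 67, 68 and Ko1, against 3873, 4039 and 3197 in heterozygotes 75, 76 and 81. Without Snap25 the neuronal sum was lowest on Ko1, so the groups overlapped. The part of the astrocyte and neuronal lists in the Ntrk2 values was not tested.

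Ntrk3, the NT-3 receptor, showed no change past the threshold in 4 tested probe sets. The brightest, 1433825_at, read 249, 242 and 222 in knockouts 67, 68 and Ko1, against 190, 136 and 244 in heterozygotes 75, 76 and 81. The knockout arrays lay close together at the upper end of the heterozygous range, with a change of 0.33 ± 0.23 (adjusted p = 0.448, limma) that became -0.07 with arrays centred on their medians. Probe set 1425071_s_at was at 86.2 ± 20.9 against 81.3 ± 10.1 (SD, n = 3; change 0.05 ± 0.23). Probe set 1422329_a_at read 57.9, 57.8 and 43.4 against 36.4, 16.4 and 20.8. It did not overlap, with a change of 0.79 ± 0.28 (adjusted p = 0.16, limma), though its heterozygous level was also under the filter level on the log scale. In 1447723_at, knockout 67 read 87.7 and the 5 other arrays 9.67 to 37.1 (change 0.29 ± 0.49, and -0.23 without 67). The 4 untested probe sets had means of 15.2 to 36.1 on knockout and 5.54 to 24.0 on heterozygous arrays.

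Ngfr, which encodes p75 and in adult forebrain marks the cholinergic neurons of the basal forebrain, had 1 probe set bright enough to test. Probe set 1454903_at read 56.8, 75.0 and 48.2 in knockouts against 63.6, 91.5 and 68.1 in heterozygotes. Knockout 67 and Ko1 lay below all heterozygous arrays and 68 among them, with a change of -0.25 ± 0.24 (adjusted p = 0.586, limma). The 2 other probe sets read 0.583 to 14.1 on all arrays and were not tested. The summed signal of 6 cholinergic markers was 256.3 to 418.3 on knockout against 627.7 to 686.2 on heterozygous arrays, a separation that rested on 1 gene. Without Ache, acetylcholinesterase, the sum was 49.5, 132 and 241 against 172, 147 and 246, and the groups overlapped. Ache itself read 207, 286 and 122 against 498, 480 and 440 (-1.21 ± 0.28, adjusted p = 0.0657, limma). Lhx8, a transcription factor of these neurons, read 5.03 and 6.71 on knockout 67 and 68, 128 on Ko1 and 69.2 to 165 on heterozygous arrays. Slc18a3, the vesicular acetylcholine transporter, had a change of 0.21 ± 0.28. Of the list's 3 tested genes 0 passed (limma; 1 with an unadjusted p under 0.05), and its part in the Ngfr values was not tested.

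Sort1, the sorting receptor that binds proneurotrophins with p75, was higher on knockout 67 and 68 in all 3 probe sets. The brightest, 1423362_at, read 959, 778 and 541 in knockouts 67, 68 and Ko1, against 532, 600 and 671 in heterozygotes 75, 76 and 81. Ko1 lay within the heterozygous range. The change was 0.30 ± 0.23 (adjusted p = 0.498, limma), 0.52 without Ko1 (adjusted p = 0.0482) and -0.10 with arrays centred on their medians. Probe set 1450955_s_at read 252, 354 and 95.1 in knockouts against 71.8, 74.8 and 64.9 in heterozygotes. All 3 knockout arrays were above the controls, Ko1 by far the least. Means were 234 ± 130 and 70.5 ± 5.06 (SD, n = 3), a change of 1.36 ± 0.40 (adjusted p = 0.108, limma), the largest among the 16 tested. It was 1.86 without Ko1 (adjusted p = 0.00136) and 0.36 with Ko1 alone (adjusted p = 0.376). The suffix of this probe set marks probes that may match more than 1 transcript, so other transcripts could contribute. Probe set 1423363_at read 154, 78.2 and 55.1 against 44.4, 58.1 and 28.1, with Ko1 inside the heterozygous range (0.84 ± 0.36, adjusted p = 0.224, limma). All 3 Sort1 probe sets are assigned to the same source sequence, yet 1423362_at minus 1450955_s_at was 1.87, 1.10 and 2.33 in knockouts against 2.64, 2.76 and 3.08 in heterozygotes (exact permutation p = 0.1).

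**Figure D4:**
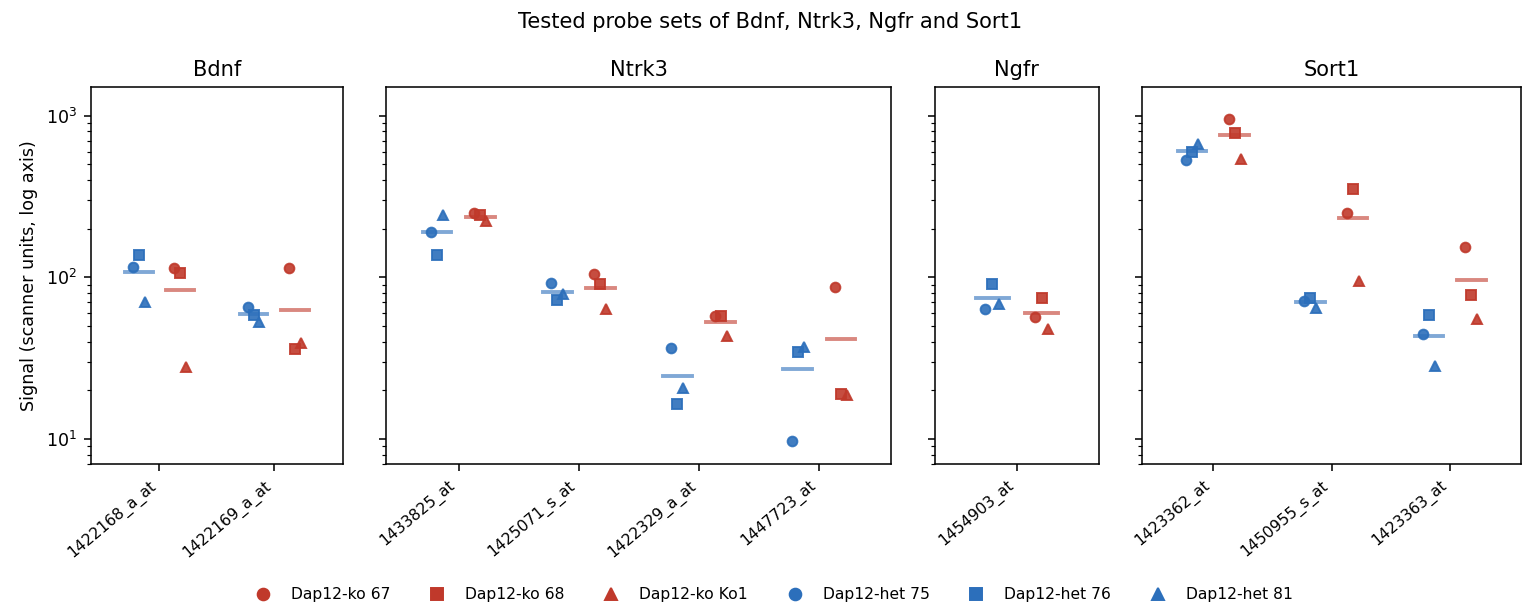
Signal of the tested probe sets of Bdnf, Ntrk3, Ngfr and Sort1 on the 6 arrays (log axis, scanner units), with knockout arrays in red, heterozygous arrays in blue and lines at the group means. Groups separate only in Ntrk3 1422329_a_at and Sort1 1450955_s_at. Ko1 is the lowest knockout array in every probe set shown except Bdnf 1422169_a_at, where 68 is lowest (35.9).

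Oligodendrocyte markers had the same order of knockout arrays (67, 68, Ko1) as Sort1 1423362_at and 1423363_at. That order was not particular to Sort1, since Bdnf 1422168_a_at, Ntrk2 1437560_at and all 4 tested Ntrk3 probe sets also had it. The summed signal of 11 of 12 listed markers was 69400, 54960 and 29970 in knockouts 67, 68 and Ko1, against 22720 to 23570 on heterozygous arrays. Of these sums Mbp made up 36160, 24720 and 11660 in the knockouts and 5799 to 6439 in the heterozygotes. Of the 11 genes 2 rose and 1 fell on their brightest probe sets. Mbp, myelin basic protein, rose by 1.85 ± 0.35 (adjusted p = 0.04, limma) and Mal, a myelin raft protein, by 0.73 ± 0.15 (adjusted p = 0.0478), while Myrf, the myelin regulatory factor, fell by 1.17 ± 0.20 (adjusted p = 0.0354). Sort1 1450955_s_at had the order 68, 67, Ko1. The median signals of the knockout arrays (40.4, 35.8 and 24.7) and their spiked controls (154200, 79435 and 69900) also ran in the order 67, 68, Ko1. The summed thalamic (6083, 5696 and 1501), midbrain dopamine (1867, 1460 and 834.8) and endothelial and pericyte markers (1917, 1559 and 1125) had this order too. The other cell type and region lists ran in other orders. The part of these lists and of the array differences in the Sort1 values was not tested.

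The tested probe sets whose pattern over the 6 arrays lay nearest to each receptor or ligand were found by the root mean square difference of log2 values, each centred on its own mean. For Bdnf 1422168_a_at, whose own deviation was 0.608, they were probe sets of Osbpl5 (0.099), Uncx (0.113) and Fhdc1 (0.115). For Ntrk2 1435196_at (own deviation 0.381) they were Daam1 (0.039), Kif2a (0.042) and Setd3 (0.050), for which changes were -0.59, -0.57 and -0.62, none past the threshold. For Ntrk3 1433825_at they were Anks3, B3galnt2 and Zdhhc23 (0.029 to 0.040), and for Ngfr 1454903_at Fxr2, Lrrtm2 and Coq10a (0.055 to 0.080). For Sort1 1423362_at they were Dimt1, Synm and Cr1l (0.028 to 0.057). These distances over 6 arrays are a description, the nearest of 22518 candidates.

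Of 144 genes listed around these receptors 123 had a named probe set, 117 were tested, 0 rose and 3 fell on their brightest probe set (limma), against 0.366% higher and 1% lower (1.37% in all) over 11467 genes. The median change was -0.11, and -0.09 over all genes. Over all 241 probe sets of these genes 10 rose and 3 fell, against 1.24% and 0.733% of all tested. Of the 10, 5 (in Akt2, Crkl, Rapgef1, Dlg4 and Camk2a) had a heterozygous level below the filter, so they entered the test only through the knockout arrays, where they were high. Without the filter 9 of the 10 no longer passed (adjusted p 0.0593 to 0.0984, limma) and Dlg4 did, while of the 3 that fell only Hap1 passed. With quantile normalization 1 was higher and 1 lower, without trend 4 and 1, with a floor of 1 and nothing added 4 and 2, and with a stricter filter 5 and 3. The 10 were in 10 genes and none was its gene's brightest, whereas the 3 that fell all were. Of all probe sets with 1 symbol, 17.6% of those that rose and 76.2% of those that fell were their gene's brightest. Without any 1 of knockout 67, 68, heterozygous 75 or 81 none of the 13 was called (limma), and 1 of the pathway probe sets was without 76. Without Ko1, 47 were higher and 22 lower. With arrays centred on their medians 2 were higher and 6 lower, a centring that moved the median of all changes by -0.40 and the share of higher calls among all probe sets from 62.9% to 17.2%.

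The 3 that fell were Hap1, Map2k2 and Maged1. Hap1, the huntingtin-associated protein that takes part in BDNF transport and is abundant in hypothalamus, read 204, 285 and 326 in knockouts 67, 68 and Ko1, against 797, 774 and 730 in heterozygotes 75, 76 and 81. The groups lay far apart, with a change of -1.47 ± 0.21 (adjusted p = 0.0228, limma). It was 1 of 11 processing and release genes tested, and the other 10 did not pass. Hypothalamic markers, 13 of 14 listed, had summed signals of 3346, 1724 and 4992 on knockout and 3966 to 6740 on heterozygous arrays, and 2 of 10 tested fell, Baiap3 (-1.68 ± 0.31, adjusted p = 0.0391, limma) and Dlk1 (-1.12 ± 0.18, adjusted p = 0.0287). Their part in the Hap1 values was not tested. Map2k2, the MAP kinase kinase MEK2, read 111, 109 and 115 against 253, 215 and 273, with little spread among the knockout arrays (-1.04 ± 0.19, adjusted p = 0.0391, limma). Maged1, a p75-binding protein also called NRAGE, read 953, 1105 and 1128 against 2126, 1910 and 1696 (-0.84 ± 0.17, adjusted p = 0.0465, limma).

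Among 35 adaptor and kinase genes tested, 1 fell (Map2k2), 0 rose and 34 did not pass on their brightest probe set, with a median change of -0.11. Dimmer probe sets rose for Akt2, a kinase downstream of PI3-kinase (1.62 ± 0.28), the adaptors Crkl (1.62 ± 0.29) and Crk (1.44 ± 0.28), the exchange factor Rapgef1 (1.53 ± 0.29) and the PI3-kinase subunit Pik3r1 (1.31 ± 0.27). Changes of their brightest probe sets were 0.12, -0.16, -0.13, -0.11 and 0.30 in that order, none past the threshold. Their remaining tested probe sets, also not past it, changed by 0.56 (Akt2), 1.38 (Crkl), 0.04 (Crk), and 0.61 and 0.99 (Pik3r1). The dimmer ones of Akt2, Crkl and Rapgef1 had heterozygous levels below the filter, so they entered the test only through the knockout arrays. Without the filter none of the dimmer ones that rose here passed (adjusted p 0.0812 to 0.0984, limma). Of 15 p75 signalling genes 1 fell (Maged1), and a dimmer probe set of Mapk9, the kinase JNK2, rose (1.76 ± 0.32) while its brightest was at -0.02 ± 0.24. Another Mapk9 probe set changed by 1.03 ± 0.25 (adjusted p = 0.07, limma). Of 15 trafficking genes 0 passed on the brightest probe set (limma; 4 with an unadjusted p under 0.05). A dimmer one rose for Dlg4, the scaffold PSD-95 (2.74 ± 0.31, brightest 1.49 ± 0.36). So did a dimmer one of Sh3gl2, endophilin A1 (1.60 ± 0.32, brightest -0.01 ± 0.16). Another Sh3gl2 probe set changed by 1.24 ± 0.34 (adjusted p = 0.0951, limma). The Dlg4 one had a heterozygous level below the filter, so it entered the test only through the knockout arrays. Without the filter it passed (adjusted p = 0.0191, limma) and the Sh3gl2 one that rose did not (adjusted p = 0.0748).

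Of 14 regulators of Bdnf transcription 0 passed on the brightest probe set (limma; 0 with an unadjusted p under 0.05), and a dimmer one of Camk2a rose (1.73 ± 0.35; brightest -0.13 ± 0.55). Of 20 genes that BDNF is known to induce or regulate 0 passed (limma; 2 with an unadjusted p under 0.05), with a median of -0.19. A dimmer probe set of Rgs4, a regulator of G-protein signalling, rose by 2.0 ± 0.37, while its brightest was at 0.11 ± 0.23. Another Rgs4 probe set changed by 0.61 ± 0.24 and did not pass. Without the filter the dimmer ones of Camk2a and Rgs4 that rose did not pass (adjusted p = 0.0984 and 0.0593, limma). That of Camk2a had a heterozygous level below the filter, so it entered the test only through the knockout arrays. Of the 7 other neurotrophin receptors and partners tested 0 passed (limma; 1 with an unadjusted p under 0.05). Kidins220, a scaffold of Trk receptors, had a change of 0.31 ± 0.18 on its brightest probe set. A dim one changed by 1.34 ± 0.30 (adjusted p = 0.0594, limma). That dim one had a heterozygous level below the filter, so it entered the test only through the knockout arrays. Other Kidins220 probe sets changed by 1.27 ± 0.34 and -0.18 ± 0.20. Sorl1, a relative of sortilin, had changes of 0.40 ± 0.21 on its brightest probe set and 1.10 ± 0.32 on a dim one.

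**Figure D5:**
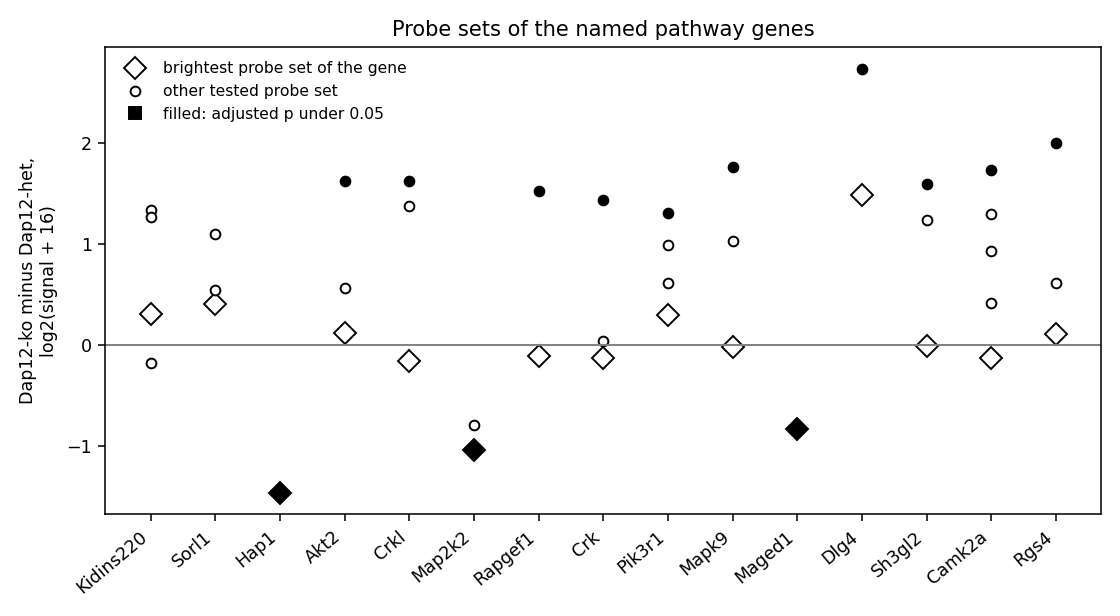
Knockout minus heterozygous change on log2(signal + 16) of every tested probe set of the named pathway genes; diamonds are the brightest probe set of a gene, circles the others, and filled symbols passed an adjusted p of 0.05 (limma). The 3 filled diamonds (Hap1, Map2k2, Maged1) lie below 0, and the 10 filled circles lie above it.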

How the data were processed

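Per the labels' protocols, RNA extracted with Trizol and RNeasy columns was labelled with biotin by the Affymetrix one-cycle method. Per the submitters' processing notes the authors obtained signals with GCOS; its version is not given in the sources used here. Values as the authors deposited them are linear signal intensity per probe set, and their trimmed mean (2% off each end) was 100 on every array, a scaling that was kept. Members and lists were chosen with earlier results of these data known. The platform annotation gave 1 symbol to 34945 probe sets, several to 932 and none to 9160.

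After removal of 64 controls, the 22518 probe sets above the median of mean log2(signal + 16), about signal 24.2, were tested with limma 3.58.1 in R 4.3.3 (lmFit, eBayes with trend, two-sided), adjusted by Benjamini-Hochberg at 0.05. Errors of changes are SE, errors of signals SD. Exact permutation tests were two-sided, with 0.1 as the smallest p. Lists are described by counts and medians, each gene by its brightest probe set. Named are all member probe sets, Tyrobp, pathway genes with a called probe set (else the 2 with the smallest p), the 3 nearest patterns, and up to 3 genes of a marker list by p; Penk, Lhx8, Slc18a3, Ache, Glul, Mbp, Mal, Dlk1 and Baiap3 come from these, and Myrf was named after its values were seen. The procedure was tested on simulated data. The number of arrays limits the precision. Promoter letters come from RefSeq (GRCm38.p6), which held windows for Bdnf, Ntf3, Ntrk2 and Ngfr. Alternatives were quantile normalization, median centring, 64 added, a floor of 1, no filter, a stricter filter, eBayes without trend or robust, array weights, leaving out each array, and gene means; 2 fits on fewer arrays were added after seeing the data.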

Additional observations from a re-analysis of the deposited data

Results flagged for a closer look

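The spiked control probe sets, which no comparison used, were higher on knockout than on heterozygous arrays. Their summed signal was 154200, 79435 and 69900 in knockouts 67, 68 and Ko1, against 22298, 22837 and 23993 in heterozygotes 75, 76 and 81, a ratio of group means of 4.39. It was picked out because it is a signal outside the measured genes that lies above the level in the controls. The ratio of the 3′ to the 5′ control probe set, a sign of RNA integrity, was 0.702 to 1.21 on knockout and 0.997 to 1.42 on heterozygous arrays for Gapdh and 1.76 to 2.33 and 1.59 to 2.12 for actin. Groups of 3 arrays were too small for a test of single outlying arrays.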

How the results depend on the processing

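The count of member probe sets past the threshold was 0 in the reported fit (limma; 6 with an unadjusted p under 0.05), 4 with array weights, 4 with knockout 67 and 68 against heterozygous 75 and 76, and 0 to 7 leaving out 1 array. It stayed 0 in the other alternatives. All probe sets past the threshold numbered 445, 129 with quantile normalization, 124 without a filter, 180 without trend, 4786 with array weights, 4478 with the 2 against 2 arrays, and 0 to 5220 leaving out 1 array. Pathway genes numbered 3, 1 with quantile normalization, 1 without a filter, 1 without trend, 5 with median centring, 5 with Ko1 alone, 22 with array weights, 22 with the 2 against 2 arrays, and 0 to 25 leaving out 1 array.

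Changes that took the other sign, none past the threshold, were in Bdnf 1422168_a_at (0.08 without Ko1; -0.71 to 0.08 leaving out 1 array) and in Bdnf 1422169_a_at (0.18 without 68, 0.13 without Ko1, 0.01 without 75, 0.08 with 2 against 2; -0.48 to 0.18 leaving out 1 array). For Ntrk2 they were in 1420838_at (0.23 with Ko1 alone) and 1437560_at (0 with array weights, 0.12 without Ko1, 0.25 with 2 against 2; -0.55 to 0.12 leaving out 1 array). For Ntrk3 they were in 1425071_s_at (-0.35 with median centring, -0.08 without 67, -0.01 without 76, -0.29 with Ko1 alone), 1433825_at (-0.07 with median centring) and 1447723_at (-0.11 with median centring, -0.23 without 67, -0.05 without 75, -0.24 with Ko1 alone; -0.23 to 0.56 leaving out 1 array). For Sort1 1423362_at they were -0.10 with median centring and -0.14 with Ko1 alone. The cause was not tested. No paired analysis was possible because the groups share no replicate numbers. As the mean of its tested probe sets Sort1 had a change of 0.83 ± 0.28 (adjusted p = 0.171, limma) and Ntrk2 of -0.22 ± 0.16 (adjusted p = 0.476).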
